A study of Rattus norvegicus with 4 samples.

Results

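Fibronectin and the matricellular proteins are secreted into the extracellular matrix, where fibronectin forms an adhesive scaffold and the matricellular proteins mainly tune adhesion, growth factor signaling and matrix assembly rather than bearing load. The genes described here were *Fn1*, *Tgfbi*, *Postn*, *Ccn1*, *Ccn2*, *Tnc*, *Thbs1*, *Vcan*, *Spp1* and *Mgp*. A probe set (the several short probes that together read a transcript) was taken as a member when its only gene symbol in the platform annotation was among these 10 symbols. Of the 10 genes, 9 had such a probe set, with 13 probe sets in all among 31042 on the array, and *Thbs1* was not analysed here. The 9 genes stand among 14217 genes with a symbol of their own.

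The tissue was the lens capsule with the lens epithelial cells (LECs) that extracapsular lens extraction (ECLE) leaves behind, from female albino Sprague-Dawley (SD) rats operated on at 7 weeks of age, in a model of posterior capsule opacification (PCO). Capsules were collected right after surgery (day 0, rats aged 7 weeks), 7 days later (1 W, aged 8 weeks) and 14 days later (2 W, aged 9 weeks). Day 0 and 2 W had 1 array each and 1 W had 2, which the labels call biological replicates 1 and 2. All groups underwent ECLE, so day 0 is a capsule that had just been operated on and no array holds an unoperated lens. The sources used here do not say how many eyes or animals went into an array, although the methods give a larger number of samples for each group.

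Fibronectin is normally scarce in the quiet lens epithelium and is laid down when LECs pass through epithelial-mesenchymal transition (EMT), the conversion into spindle-shaped, matrix-producing cells that underlies fibrotic PCO. Transforming growth factor β (TGFβ) is the best known inducer of this conversion, and *Tgfbi*, *Postn*, *Ccn2*, *Tnc* and *Fn1* are TGFβ-responsive genes in many cell types. *Ccn1* and *Ccn2* are also classical targets of the co-activator YAP, which acts through TEAD transcription factors.

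The sequence before the start of *Ccn1* and *Ccn2* is shown because these relatives, which share the YAP and TEAD input, had unequal ratios after ECLE. Each window is the 250 bases before the annotated start, from RefSeq on assembly GRCr8, 5′ to 3′ on the strand of the gene. Capitals mark GGAATG on either strand (read as CATTCC on the other), the core of the TEAD motif, and TATAAA on the strand of the gene.
Ccn1, minus strand, chr2:237225690-237225939: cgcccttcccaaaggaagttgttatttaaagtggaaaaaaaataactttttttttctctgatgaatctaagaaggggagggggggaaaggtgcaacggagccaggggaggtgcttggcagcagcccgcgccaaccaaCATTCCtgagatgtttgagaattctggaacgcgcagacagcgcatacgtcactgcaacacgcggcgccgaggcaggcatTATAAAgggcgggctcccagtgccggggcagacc
Ccn2, minus strand, chr1:22624615-22624864: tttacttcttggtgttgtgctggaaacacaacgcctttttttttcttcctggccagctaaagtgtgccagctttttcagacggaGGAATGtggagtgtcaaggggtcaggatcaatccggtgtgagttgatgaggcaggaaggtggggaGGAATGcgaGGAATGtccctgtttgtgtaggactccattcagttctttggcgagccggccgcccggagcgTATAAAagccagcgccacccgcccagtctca
The *Ccn2* window holds 3 copies of GGAATG, the first bases of which lie 166, 101 and 92 bases before the start. The *Ccn1* window holds 1 copy, 113 bases before the start. Of the 10 genes, 8 had a window, while *Fn1* and *Mgp* had no window. GGAATG was found before 3 of the 8 (*Ccn1*, *Ccn2* and *Thbs1*), against 12.1% of all 33469 windows of this length. *Thbs1* had no probe set here, so 7 of the genes with a window were measured. TATAAA on the gene strand was found before 5 of the 8, against 8.06% of all windows. It lay 34, 31 and 44 bases before the start for *Ccn1*, *Ccn2* and *Postn*, but 208 and 204 bases before it for *Tnc* and *Spp1*. The *Postn* and *Spp1* windows lie within the annotated span of their gene. The AP-1 motif TGANTCA and the CArG box of serum response factor, searched on both strands, were found in 0 of the 8, against 6.34% and 1.5% of all windows. These are matches of letters only.

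The deposited values are linear intensities, given here as what a probe set read on an array. The median intensity of an array ran from 31.9 at 2 W to 57.0 at day 0. The average was 244 at day 0, 218 and 210 on the 1 W arrays and 165 at 2 W. Each array was therefore divided by its average intensity before log2 ratios to day 0 were formed, whereas sums of readings are given before this scaling. So scaled, the 10455 genes that reached a level filter at the 40th percentile had median log2 ratios of -0.01 (1 W) and -0.21 (2 W), and the values below are read against these shifts. Tests were made with limma across the 18625 probe sets that reached the filter, with Benjamini-Hochberg adjusted p-values, and all 9 genes were among them by their brightest probe set. The only residual spread in the fit comes from the 2 arrays at 1 W, and both ratios have the same single day 0 array below them. The 3′ to 5′ signal ratio of actin, a sign of RNA integrity, was 2.32 on the day 0 array, 1.89 and 1.90 on the 1 W arrays and 1.61 on the 2 W array, while that of GAPDH was 1.10 to 1.18, and the part of this order in the ratios was not tested. All 11 lens epithelium markers, among them *Pax6*, *Foxe3* and *Cryab*, reached the filter. Their readings summed to 49340 for day 0, 40060 and 36960 for the 1 W arrays and 29560 for 2 W, limma called 0 of them, and 1 (*Cdh1*) was under 0.5-fold on each array after ECLE. With p under 0.05 before adjustment, 0 were higher and 4 lower at 1 W, against 10.4% and 8.92% of all genes tested. At 2 W, 1 was higher and 5 lower, against 10.8% and 22.0%. Of 9 lens fiber markers, 2 were higher and 2 lower by that measure at 1 W, against the same shares of all genes. At 2 W, 7 were higher and 0 lower, again against the same shares (*Mip* at 13.2-fold and *Bfsp1* at 9.35-fold among the 7). limma called 0 of these, and their summed readings before scaling were 46520 for day 0, 49460 and 41420 for the 1 W arrays and 64260 for 2 W. Their median log2 ratio after scaling was 0.20 at 1 W and 1.56 at 2 W. The part of these lists in the values of the 9 genes was not tested. Markers of other cells were present as well. The readings of 15 macrophage markers summed, before scaling, to 729 for day 0, 4304 and 3273 for the 1 W arrays and 1815 for 2 W. Of the 15, 12 were over 2.0-fold on each array after ECLE, against 4.28% of all genes. In such a bulk sample, fewer cells of a type and less RNA per cell cannot be told apart, nor can more of each.

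Of the 9 genes, 6 were over 2.0-fold above day 0 on each of the 3 arrays after ECLE, namely *Fn1*, *Tgfbi*, *Postn*, *Ccn1*, *Tnc* and *Mgp*, and 0 were under 0.5-fold. The share over 2.0-fold on each array was 4.28% of all genes and 2.51% of those that reached the filter, and the share under 0.5-fold was 2.59% and 1.78%. *Fn1*, *Tgfbi*, *Ccn1* and *Mgp* were listed by the study as upregulated from these very arrays, which means that their direction is no independent evidence. *Fn1* alone passed limma, at both times. At 1 W limma called 1 of the 9 genes higher, against 0.0478% of the genes tested. With p under 0.05 before adjustment, 6 of 9 were higher, against 10.4% of genes, and 0 were lower, against 8.92%. At 2 W it again called 1 of 9 higher, against 0.0478%. With p under 0.05 before adjustment, 6 of 9 were again higher, against 10.8% of genes, and 0 were lower, against 22.0%. The median log2 ratio of the 9 genes was 2.19 at 1 W (3.21 on replicate 1 and 2.04 on replicate 2) and 2.37 at 2 W.

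**Figure D1:**
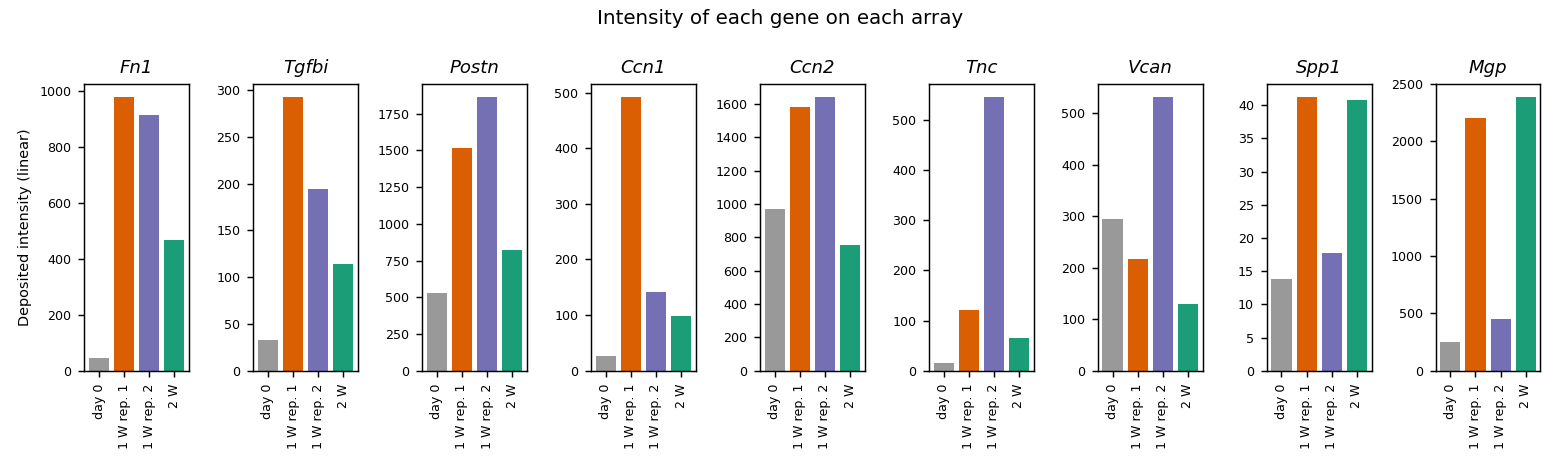
Deposited linear intensity (vertical axes, each with its own scale) of the brightest probe set of each gene on the array at day 0, the 2 arrays at 1 W and the array at 2 W, with no error bars since each bar is a single array. *Fn1* stands at 979 and 915 on the 2 arrays at 1 W, while *Tnc* stands at 122 and 545 and *Mgp* at 2207 and 448.

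*Fn1*, which encodes fibronectin, the glycoprotein that integrins assemble into fibrils at the cell surface, rose at both times. The gene lies on chromosome 9, from 80645507 to 80714200 in RefSeq's GRCr8 annotation. Its probe set read 44.5 on the day 0 array, 979 on replicate 1 and 915 on replicate 2 of 1 W, and 469 on the 2 W array. All 3 arrays after ECLE lay far above day 0, and the 2 arrays at 1 W were 1.03-fold apart after scaling. At 1 W it was 24.3-fold above day 0 (log2 ratio 4.60 with a standard error of 0.15, adjusted p = 0.0297 by limma). At 2 W it was 15.6-fold above (log2 ratio 3.96 with a standard error of 0.17, adjusted p = 0.0493). At 2 W the adjusted p was 0.0576 with quantile scaling and 0.0509 with a floor under low values, and a stricter level filter also ended the call at 2 W. Without limma's intensity trend *Fn1* passed at neither time. By the distance over the 3 log2 ratios, the genes nearest to *Fn1* among those that reached the filter were *Cdkn2b*, *Gbp2*, *Cdh6*, *Col5a2* and *Gbp7*. For *Cdkn2b*, *Cdh6* and *Gbp7* the day 0 array read only 4.54, 4.43 and 6.49, so their ratios rest on a very dim value, and their place in this order is not precise. *Gbp2*, which encodes an interferon-induced GTPase, read 30.2 on the day 0 array, 395 and 610 on the 1 W arrays and 305 on the 2 W array (distance 0.76). *Col5a2*, a chain of fibrillar type V collagen, read 28.9 on the day 0 array, 813 and 960 on the 1 W arrays and 476 on the 2 W array (distance 1.01). *Col5a2* passed limma at 1 W (adjusted p = 0.03, against 0.0503 at 2 W), and *Gbp2* passed at neither time. Macrophages and fibroblasts also make fibronectin. Of 9 fibroblast markers, 3 were over 2.0-fold on each array after ECLE (*Dcn*, *Lum* and *Clec3b*) and 1 was under 0.5-fold (*Pdgfra*, at 0.434-fold and 0.280-fold on the 1 W arrays and 0.285-fold on the 2 W array), with a median log2 ratio over the list of 0.11 for 1 W and 0.37 for 2 W. Of 9 smooth muscle and pericyte markers, 2 were over 2.0-fold (*Tagln* and *Des*) and 0 under 0.5-fold. Over all genes these shares were 4.28% and 2.59%. limma called 0 of the fibroblast markers and 1 of the smooth muscle and pericyte markers, *Tagln*, at both times. Its log2 ratio was 5.94 at 1 W (adjusted p = 0.0297 by limma) and 4.75 at 2 W, where it passed by a narrow margin. The part of these markers and of the macrophage markers in this result was not tested.

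*Tgfbi* and *Postn* encode secreted relatives built of fasciclin domains, which link collagens to integrins. The *Tgfbi* probe set read 32.6 on the day 0 array, 292 on replicate 1 and 194 on replicate 2 of 1 W, and 114 on the 2 W array. This gave 8.34-fold for 1 W (log2 ratio 3.06 with a standard error of 0.30, adjusted p = 0.0998 by limma) and 5.17-fold for 2 W (adjusted p = 0.0602), neither of which passed. *Postn*, which encodes periostin, a protein of collagen-rich and wounded tissue, had a probe set reading 528 on the day 0 array, 1514 on replicate 1 and 1862 on replicate 2 of 1 W, and 825 on the 2 W array. This gave 3.63-fold for 1 W (log2 ratio 1.86 with a standard error of 0.19, adjusted p = 0.101) and 2.31-fold for 2 W (adjusted p = 0.0705). For both genes the 2 arrays at 1 W lay together above the array at 2 W, which lay above day 0. Under median scaling of the arrays, which gave 406 calls at 1 W and 1631 at 2 W over all probe sets, both passed limma at 1 W and at 2 W. With the values as deposited *Tgfbi* passed at both times and *Postn* at 1 W alone. With quantile scaling neither passed at 1 W (adjusted p = 0.0962 for each by limma) or at 2 W (0.0685 for *Tgfbi* and 0.0828 for *Postn*), nor did they with a floor under low values.

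The CCN proteins are cysteine-rich signals that bind integrins and heparan sulfate, and *Ccn1* and *Ccn2* had unequal ratios. *Ccn1* read 25.6 on the day 0 array, 492 on replicate 1 and 142 on replicate 2 of 1 W, and 98.6 on the 2 W array. Replicate 1 stood apart from the other arrays, with a ratio of 21.6-fold, against 6.46-fold on replicate 2 and 5.70-fold at 2 W. The log2 ratio was 3.56 at 1 W (standard error 0.77, adjusted p = 0.174) and 2.51 at 2 W (adjusted p = 0.155). *Ccn2*, which encodes connective tissue growth factor, read 967 on the day 0 array, 1580 on replicate 1 and 1639 on replicate 2 of 1 W, and 756 on the 2 W array. Its 2 arrays at 1 W differed by 1.08-fold and gave a ratio of 1.90-fold (log2 ratio 0.93, standard error 0.13, adjusted p = 0.121). At 2 W its log2 ratio was 0.21 (adjusted p = 0.391), and it was -0.36 without scaling of the arrays. The difference between the ratios of the 2 genes was not tested. The other CCN genes had no call, and of these *Ccn3* alone reached the filter, at 1.38-fold for 1 W (adjusted p = 0.459) and 0.870-fold for 2 W (adjusted p = 0.720). *Ccn4*, *Ccn5* and *Ccn6* read between 4.31 and 39.5 over the arrays and were not tested. Both windows shown above hold the TEAD core, with 1 copy before *Ccn1* and 3 before *Ccn2*.

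*Tnc*, which encodes tenascin C, an oligomeric glycoprotein that loosens adhesion to fibronectin and appears in healing wounds, had the highest ratio on a single array of the 9 genes. Its probe set read 14.7 on the day 0 array, 122 on replicate 1 and 545 on replicate 2 of 1 W, and 65.2 on the 2 W array. The ratio was 9.28-fold on replicate 1, 43.0-fold on replicate 2 and 6.55-fold at 2 W. All 3 arrays after ECLE were above day 0, but the 2 arrays at 1 W were 4.63-fold apart, so the log2 ratio at 1 W of 4.32 had a standard error of 0.97 (adjusted p = 0.178). For 2 W the log2 ratio of 2.71 had a standard error of 1.12 (adjusted p = 0.195).

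**Figure D2:**
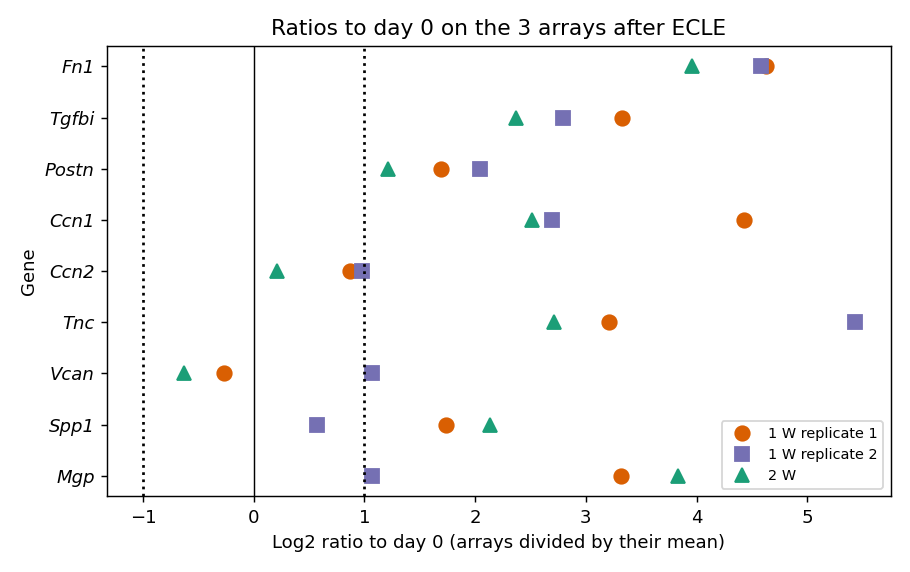
Each of the 9 genes (vertical axis) with its log2 ratio to day 0 (horizontal axis), where circles and squares are replicates 1 and 2 of 1 W, triangles are 2 W and dotted lines stand at 2.0-fold and 0.5-fold. The 3 symbols of *Fn1* lie between 3.96 and 4.63, and *Vcan* is the only gene with symbols on both sides of 0.

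*Vcan*, which encodes versican, a large chondroitin sulfate proteoglycan that binds hyaluronan, was read by 5 probe sets. The brightest read 295 on the day 0 array, 218 on replicate 1 and 530 on replicate 2 of 1 W, and 129 on the 2 W array. Replicate 2 lay above day 0 while replicate 1 and the array at 2 W lay below it. The log2 ratio was 0.40 at 1 W (standard error 0.59, adjusted p = 0.742) and -0.63 at 2 W (adjusted p = 0.568), and without replicate 2 the value at 1 W was -0.27. The other 3 probe sets at or above the filter had ratios of 2.68-fold to 3.14-fold on replicate 2, against 0.687-fold to 1.04-fold on replicate 1. At 2 W they had ratios of 0.918-fold to 1.12-fold. The remaining probe set had intensities from 4.55 to 9.95, was below the filter and was not tested. Replicate 2 was higher than replicate 1 in all 5 probe sets. Names ending in a_at or x_at mark probe sets whose probes can read several transcripts of a gene or other sequences, and which versican isoform each reads was not resolved here.

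**Figure D3:**
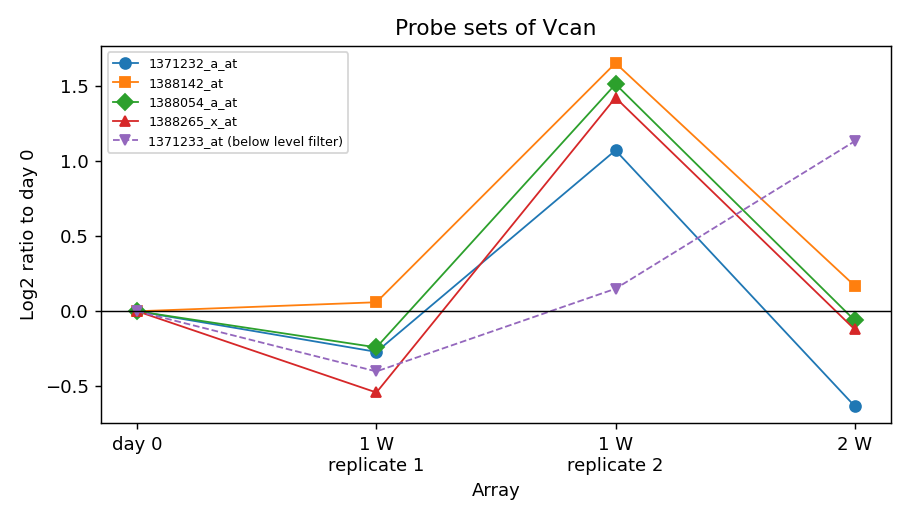
Log2 ratio to day 0 (vertical axis) of the 5 probe sets of *Vcan* on the 4 arrays (horizontal axis), with day 0 at 0 and the probe set below the level filter dashed. The 4 brighter probe sets peak on replicate 2 at 1 W, between 1.07 and 1.65, and lie between -0.54 and 0.06 on replicate 1.

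*Spp1* and *Mgp* encode proteins that bind mineral and hold back calcification. Osteopontin, the product of *Spp1*, is also secreted by activated macrophages, and matrix Gla protein, the product of *Mgp*, binds bone morphogenetic proteins. *Mgp* read 249 on the day 0 array, 2207 on replicate 1 and 448 on replicate 2 of 1 W, and 2383 on the 2 W array. Replicate 1 and the array at 2 W were high and replicate 2 was nearer to day 0, with ratios of 9.97-fold, 2.10-fold and 14.2-fold on replicate 1, replicate 2 and at 2 W. The log2 ratio was 2.19 at 1 W (standard error 0.97, adjusted p = 0.333) and 3.83 at 2 W (standard error 1.12, adjusted p = 0.119). *Spp1* was dim, reading 13.8 on the day 0 array, 41.2 on replicate 1 and 17.7 on replicate 2 of 1 W, and 40.8 on the 2 W array. It had the same order of arrays as *Mgp* after scaling, and its log2 ratio was 1.16 at 1 W (standard error 0.67, adjusted p = 0.416) and 2.13 at 2 W (adjusted p = 0.161).

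The 9 genes differed in how well the 2 arrays at 1 W matched. The absolute log2 difference between the arrays was 0.05 for *Fn1*, 0.11 for *Ccn2*, 0.35 for *Postn* and 0.54 for *Tgfbi*. It was 1.17 for *Spp1*, 1.34 for *Vcan*, 1.74 for *Ccn1*, 2.21 for *Tnc* and 2.25 for *Mgp*. Over the 18625 probe sets tested its median was 0.21 and its 90th percentile 0.73, so 5 of the 9 genes lay beyond that percentile, and 0.37% of probe sets differed by more than *Mgp* and 0.413% by more than *Tnc*. The direction was not shared, with *Mgp*, *Ccn1* and *Spp1* higher on replicate 1 and *Tnc* and *Vcan* higher on replicate 2. Cell type markers moved between these arrays as well, and their sums here are again of readings before scaling. Of 6 pigment cell markers, 6 were higher on replicate 1, and their readings summed to 2640 for day 0, 14660 for replicate 1, 5062 for replicate 2 and 6111 for 2 W. Of 9 fibroblast markers, 7 were higher on replicate 1, with sums over the arrays in the same order of 4981, 9525, 3828 and 6595. Of 9 smooth muscle and pericyte markers, 7 were higher there, with sums of 532, 3106, 1805 and 1191. Of 8 endothelial markers it was 7, with sums of 506, 779, 413 and 434, and of 10 photoreceptor markers it was 0, with sums of 15640, 1365, 5679 and 1388. Of 15 macrophage markers 14 were higher on replicate 1, of 9 lens fiber markers 8 and of 11 lens epithelium markers 8. Of 5 Schwann cell markers it was 5, and of 2 red blood cell markers 1. Over all 14217 genes the median log2 difference, replicate 1 minus replicate 2, was -0.03. The photoreceptor list was thus far lower after ECLE than at day 0. It and the red blood cell list were higher in sum on replicate 2, while the other lists named here were higher in sum on replicate 1. No marker of these lists was at 0 on any array, and the part of these markers in the gaps of *Mgp*, *Ccn1*, *Spp1*, *Tnc* and *Vcan* was not tested.

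**Figure D4:**
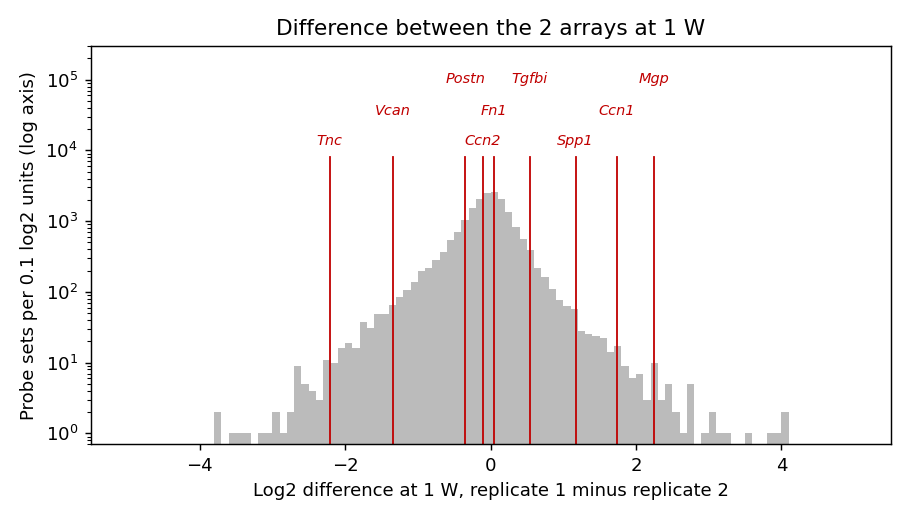
Number of probe sets (vertical axis, log scale) by the log2 difference between the 2 arrays at 1 W, replicate 1 minus replicate 2 (horizontal axis), for the 18625 probe sets tested, with a line at the brightest probe set of each of the 9 genes. *Fn1* and *Ccn2* lie in the middle at 0.05 and -0.11, while *Mgp* lies at 2.25 and *Tnc* at -2.21.

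Between 2 W and 1 W, 7 of the 9 genes were at 2 W below both arrays at 1 W by their brightest probe set and 2 (*Mgp* and *Spp1*) were above both. The other *Vcan* probe sets at or above the filter lay between the 2 arrays at 1 W. Of all genes at or above the filter, 68.0% had a value at 2 W below the mean at 1 W, as had 61.1% of all genes. That is a looser measure than lying below both arrays, and by it the count was also 7 of the 9 genes. limma called 0 of the 9 genes in this comparison, against 0.0% of the genes tested in either direction, and with p under 0.05 before adjustment 3 were lower (*Fn1*, *Postn* and *Ccn2*), against 18.7% of genes, and 0 were higher, against 6.02%. The ratio of 2 W over 1 W was 0.642-fold for *Fn1* (log2 difference -0.64, standard error 0.15, adjusted p = 0.156). It was 0.608-fold for *Ccn2* (adjusted p = 0.144), 0.637-fold for *Postn* (adjusted p = 0.189) and 0.620-fold for *Tgfbi* (adjusted p = 0.279). *Tnc* had 0.328-fold and *Ccn1* 0.483-fold, with standard errors of 0.97 and 0.77 on the log2 scale. *Mgp* had 3.11-fold (adjusted p = 0.378) and *Spp1* 1.96-fold (adjusted p = 0.442). The median log2 difference of the 9 genes was -0.69, against -0.22 over all genes at or above the filter.

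Other genes of these protein families and pathways were read from 6 lists, with 0 members called by limma in any list at either time. Of 17 measured relatives in the CCN, thrombospondin, tenascin and SPARC families, 2 were over 2.0-fold on each array (*Thbs4* and *Tnn*) and 2 under 0.5-fold (*Spock1* and *Spock3*), and the median log2 ratio was 0.46 (1 W) and 0.29 (2 W). Over all 14217 genes these medians were -0.02 and -0.16. *Thbs4*, a thrombospondin of tendon and muscle matrix, read 9.35 on the day 0 array, 120 and 24.6 on the 1 W arrays and 50.4 on the 2 W array. *Sparc*, a collagen-binding protein of basement membranes and lens capsule, read 10231 on the day 0 array, 6363 and 6560 on the 1 W arrays and 5698 on the 2 W array, with a log2 ratio of -0.47 for 1 W (adjusted p = 0.192) and -0.28 for 2 W (adjusted p = 0.234). For *Fstl1*, a SPARC relative, the log2 ratio was -0.31 at 1 W (adjusted p = 0.308) and -0.96 at 2 W (adjusted p = 0.0607). *Tnn*, *Spock1* and *Spock3* were below the filter and were not tested. Of the 9 genes of this list that were tested, 1 was higher and 1 lower at 1 W with p under 0.05 before adjustment, against 10.4% and 8.92% of all genes. At 2 W, 2 were higher and 1 lower, against 10.8% and 22.0%.

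Of 21 measured fibulins, microfibril proteins and other adhesive glycoproteins, 5 were over 2.0-fold on each array (*Fbln5*, *Fbn2*, *Mfap4*, *Vtn* and *Matn2*) and 0 under 0.5-fold. The shares of all genes were 4.28% and 2.59%. *Vtn* was below the filter and was not tested. On the day 0 array *Vtn*, *Fbn2* and *Fbln5* read only 7.56, 14.9 and 17.3. The median log2 ratio of the list was 0.83 for 1 W (0.30 on replicate 1 and 1.19 on replicate 2) and 0.19 for 2 W. *Matn2*, a matrix adaptor protein, was 4.25-fold at 1 W and 2.17-fold at 2 W. *Fbn1*, the fibrillin of microfibrils, was 1.09-fold on replicate 1 and 2.90-fold on replicate 2 at 1 W and 1.14-fold at 2 W, with replicate 2 the high array as for *Vcan* and *Tnc*. *Mfap2*, a microfibril protein, was 0.537-fold (adjusted p = 0.119) at 1 W and 0.330-fold (adjusted p = 0.0553) at 2 W, and *Efemp1*, a fibulin, was 0.824-fold and 0.584-fold at these times. Of the 19 tested, 5 were higher and 1 lower at 1 W with p under 0.05 before adjustment, against 10.4% and 8.92% of all genes. At 2 W, 2 were higher and 3 lower, against 10.8% and 22.0%.

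Of 16 measured receptors of these proteins, 3 were over 2.0-fold on each array (*Cd44*, *Itga8* and *Cd36*, the last 2 of them below the filter) and 0 under 0.5-fold. The shares of all genes were 4.28% and 2.59%. The median log2 ratio of the list was -0.07 (1 W) and -0.09 (2 W). *Cd44*, a receptor of hyaluronan and osteopontin, read 381 on the day 0 array, 1302 and 874 on the 1 W arrays and 837 on the 2 W array, which gave 3.20-fold for 1 W (adjusted p = 0.135) and 3.25-fold for 2 W (adjusted p = 0.067). *Itgb1*, the integrin chain of the fibronectin receptor, was 1.02-fold in 1 W and 0.999-fold in 2 W capsules. *Sdc2*, a heparan sulfate proteoglycan of the cell surface, was 0.498-fold in 1 W (adjusted p = 0.105) and 0.464-fold in 2 W capsules (adjusted p = 0.0577). Of the 11 receptors tested, 1 was higher and 3 lower at 1 W with p under 0.05 before adjustment, against 10.4% and 8.92% of all genes. At 2 W, 1 was higher and 6 lower, against 10.8% and 22.0%.

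Of 12 measured genes of the versican and hyaluronan network, 0 were past either fold on each array, and the median log2 ratio was 0.23 (1 W) and -0.25 (2 W). *Adamts1* and *Adamts4*, proteases that cleave versican, had log2 ratios of 0.75 and -0.24 at 1 W and of 0.03 and -1.07 at 2 W. For *Adamts9*, a protease of the same family, the log2 ratio was 1.12 for 1 W and -1.12 for 2 W, and for *Adamts5* it was -0.34 and -0.45 at these times. Of the 6 tested, 1 was higher and 0 lower at 1 W with p under 0.05 before adjustment, and 0 were higher and 1 lower at 2 W, against the same shares of all genes. Of 9 measured genes of mineral binding and mineralization, 0 were over 2.0-fold on each array and 1 was under 0.5-fold, with medians of -1.13 (1 W) and -0.47 (2 W) on the log2 scale. That gene was *Sost*, an inhibitor of WNT signaling from bone, at 0.161-fold (adjusted p = 0.116) for 1 W and 0.0837-fold (adjusted p = 0.0558) for 2 W. The genes of this list below the filter (*Ibsp*, *Bglap*, *Dmp1*, *Mepe* and *Phospho1*) read from 0.334 to 14.9 over the arrays. The medians of the list therefore rest in part on very dim values. *Enpp1*, which makes the mineralization inhibitor pyrophosphate, was 2.22-fold and 6.81-fold on replicates 1 and 2 at 1 W and 1.35-fold at 2 W, and *Ankh*, which exports ATP and pyrophosphate, was 0.455-fold in 1 W and 0.722-fold in 2 W capsules. Of the 4 tested, 0 were higher and 2 lower at each time with p under 0.05 before adjustment. The shares of all genes were 10.4% higher and 8.92% lower at 1 W, and 10.8% and 22.0% at 2 W.

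Of 11 other measured genes induced by TGFβ or YAP, 1 (*Axl*) was over 2.0-fold and 1 (*Loxl2*) under 0.5-fold on each array. *Axl*, a receptor tyrosine kinase, read 102 on the day 0 array, 303 and 345 on the 1 W arrays and 200 on the 2 W array, which gave 3.63-fold for 1 W (adjusted p = 0.101) and 2.90-fold for 2 W (adjusted p = 0.0602). *Loxl2*, a collagen-crosslinking oxidase, was 0.450-fold in 1 W and 0.392-fold in 2 W capsules. The log2 ratio of *Ajuba*, an adaptor protein of cell junctions, was -0.28 (1 W) and -0.37 (2 W), and that of *Tgif1*, a repressor of TGFβ signaling, was 0.38 (1 W) and -0.70 (2 W). The median log2 ratio of this list was 0.01 at 1 W and -0.64 at 2 W. Of the 10 tested, 2 were higher and 2 lower at 1 W with p under 0.05 before adjustment, against 10.4% and 8.92% of all genes. At 2 W, 1 was higher and 6 lower, against 10.8% and 22.0%, while 6 of the 9 genes described above were higher.

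**Figure D5:**
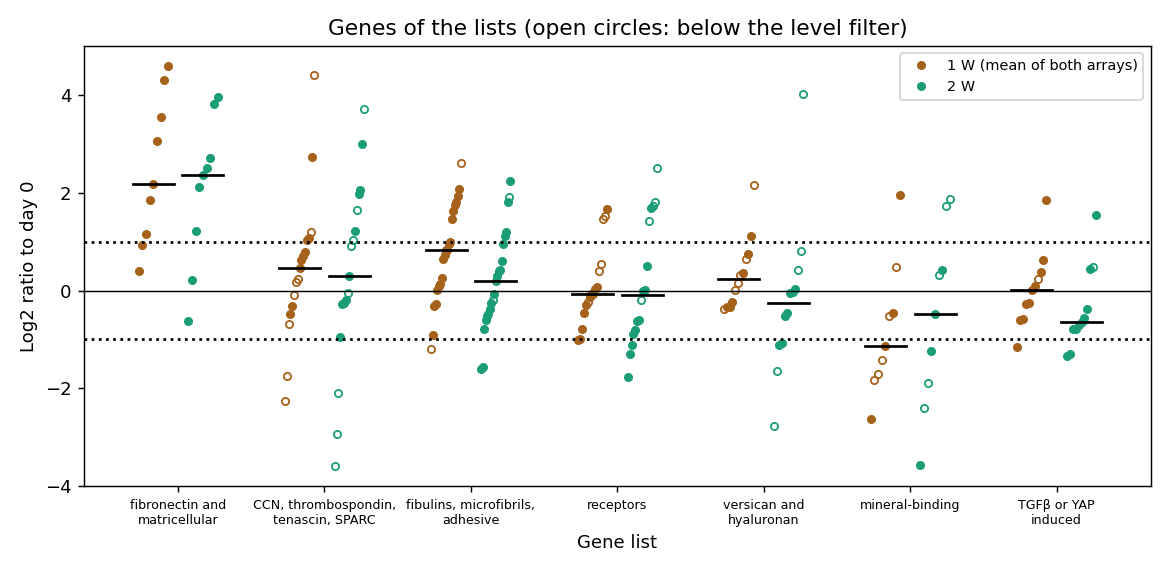
Log2 ratio to day 0 (vertical axis) at 1 W (left column of each pair, mean of both arrays) and at 2 W (right column) for the 9 genes and for each measured gene of the 6 lists, with black bars at the medians, open circles for genes below the level filter and dotted lines at 2.0-fold and 0.5-fold. The 9 genes have medians of 2.19 and 2.37, and the medians of the 6 lists lie between -1.13 and 0.83.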

How the data were processed

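Affymetrix rat genome arrays, 4 in all, measured the RNA of the capsules and their LECs. The authors made probe set values with Affymetrix software (Expression Console in the submitters' processing notes) and deposited a linear intensity per probe set. The sources used here do not give the summary algorithm or the scaling target. The 57 control probe sets were left out. Division by the array mean was followed by log2. limma 3.58.1 in R 4.3.3 (lmFit, eBayes with an intensity trend, 3 groups, two-sided, threshold 0.05) was fitted to the 18625 probe sets that reached the 40th percentile of level averaged over arrays, with 1 residual and 3.12 prior degrees of freedom. The fit was also run on simulated arrays, without scaling and with noise set by intensity level. That run cannot speak for the gaps of single genes or for the choice of scaling. P-values measure only the spread between the 2 arrays at 1 W. Where a gene had several probe sets, the brightest on average stood for it. All members are named. Of each list, called members or otherwise the 2 brightest and the highest and lowest at 1 W are named, as are genes past a fold rule and the 5 genes nearest to *Fn1*. The members, lists and motifs were chosen with earlier results of these data known. Genes named only because they passed a fold rule were chosen after their values were seen. Promoter windows are from RefSeq GRCr8. Python 3.11.15 with numpy 2.4.6 and pandas 2.3.3 made the tables, and matplotlib 3.10.9 the figures. Alternatives were other scalings, a floor, other filters, other limma priors, the mean of all probe sets and leaving out each 1 W array. Precision is limited by the number of arrays.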

Additional observations from a re-analysis of the deposited data

Results flagged for a closer look

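Among the genes named here, *Adamts9*, *Tgif1* and *Ccn3* lay above day 0 on both arrays at 1 W and below it at 2 W. *Ccn3* stood at 1.41-fold on replicate 1, 1.34-fold on replicate 2 and 0.87-fold on the 2 W array. Its adjusted p for 2 W against 1 W was 0.286 by limma. *Adamts9* had log2 ratios of 0.56 and 1.67 at 1 W and -1.12 at 2 W, and its log2 difference of 2 W minus 1 W was -2.24 (adjusted p = 0.164 from limma). *Tgif1* had log2 ratios of 0.38 and 0.37 at 1 W and -0.70 at 2 W, with a difference of -1.07 (adjusted p = 0.139). None of these genes passed limma for 2 W against 1 W. No group held 4 or more arrays, so no array was examined as an outlier.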

How the results depend on the processing

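The 6 genes over 2.0-fold on each array stayed 6 in number under quantile or median scaling, with a floor at the 20th percentile and with the mean of all probe sets, were 4 with the values as deposited, and ran from 6 to 7 without a replicate at 1 W. No gene was under 0.5-fold on each array under these settings. The number of the 9 genes that limma called at 1 W was 6 with arrays scaled by their median, 3 with the values as deposited and 0 without an intensity trend. At 2 W it was 4 with median scaling, 2 as deposited, and 0 with quantile scaling, the floor, a 60th percentile filter or no intensity trend. Between 2 W and 1 W it was 3 as deposited (*Fn1*, *Postn* and *Ccn2*). The cause was not tested. Over all probe sets tested, median scaling gave 406 calls at 1 W and 1631 at 2 W, and the values as deposited, where the median log2 ratio at 2 W was -0.83, gave 250 and 7974 (4421 between 2 W and 1 W, against 209 with median scaling). Quantile scaling gave 8 and 0 calls, no intensity trend 0 and 0, and a floor, a 60th percentile filter and no filter 5, 5 and 6 at 2 W, while the main setting gave 9 at each time. Under median scaling the genes called were *Fn1*, *Tgfbi*, *Postn*, *Ccn1*, *Ccn2* and *Tnc* at 1 W and *Fn1*, *Tgfbi*, *Postn* and *Mgp* at 2 W. The median log2 ratio of the 9 genes at 1 W ran from 2.04 to 3.21 without a replicate. The log2 ratio of *Ccn2* at 2 W was -0.36 as deposited, that of *Vcan* at 1 W was -0.27 without replicate 2 and 1.07 without replicate 1, and that of *Vcan* at 2 W was 0.10 with the mean of its probe sets. No paired analysis was possible because each rat was killed at a single time, so the groups hold capsules of different rats. In addition, 2 of the 3 groups hold 1 array each. With a single 1 W array no residual spread is left for limma, and only values were computed.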
